A study of Mus musculus with 31 samples.

Results

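Total RNA from the neocortex of wild type (WT) mice on the day of birth (P0) was compared with total RNA from WT neocortex at embryonic day 13 (E13). The libraries were chosen by the labelled genotype, age and RNA fraction: 3 at P0 and 2 at E13, which are 5 of the 31 libraries of the series, and the comparison is described across all genes. The series set WT mice beside mice labelled HuR cKO, a conditional knockout of the RNA-binding protein HuR (gene Elavl1), and sequenced total and ribosome-associated RNA of the neocortex at these ages. Cortices were lysed in a polysome buffer with cycloheximide, which holds ribosomes on mRNA, and the lysate was cleared by centrifugation, so that total RNA means the poly(A) RNA of that cleared lysate. A last comparison uses the total RNA libraries labelled HuR cKO, 2 at E13 and 3 at P0. The mouse strain, the sex, the number of animals behind a library and the driver of the knockout are not stated in the labels. The labels tie no library to an animal or litter of its own, so the tests weigh differences against the spread among these libraries, whatever its source.

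At E13 the cortical wall of the mouse is dominated by radial glia, the dividing stem cells that line the ventricle, and by their first neuronal progeny. By birth most cortical neurons have been made and have migrated into layers, where they extend axons and dendrites and form the first synapses, while the remaining progenitors turn to making astrocytes and oligodendrocyte precursors. In such bulk tissue, fewer cells of a type and less RNA per cell cannot be told apart.

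The values are FPKM, fragments scaled to transcript length and to the size of the library, and were tested as log2(FPKM + 1) with the moderated test of limma for the 12123 genes with a mean of at least 1 FPKM over the 15 WT libraries. A gene was called at a Benjamini-Hochberg adjusted p under 0.05 over all of these genes, and rose or fell is written only of called genes. Fold changes are P0 over E13 on that log2 scale, which understates the change of low genes, and their errors are standard errors (SE). Of the 12123 genes, 2961 (24.4%) were called higher and 3378 (27.9%) lower at P0, 2024 and 1944 of them by at least 1. Without E13 replicate 1, 2189 were called higher and 2104 lower, and with rescaling of the libraries by median ratio 3245 and 2898. The median over all tested genes was -0.12. In 4081 tested genes every P0 library lay above both E13 libraries, and in 5049 every P0 library lay below them. A lack of overlap between the ages was thus common and by itself does not mark a gene out. For 4491 genes (37.0%) the 95% interval of the fold change lay within 1 of 0 on both sides. The deposited tables hold no counts. Ratios of low FPKM values placed the depth of the other libraries at 73.3% to 89.0% of that of E13 replicate 0. For the P0 libraries this rests on 115 to 147 of 1477 to 1487 genes compared. The scaling between libraries, which is not stated, also enters such ratios. In the 5 libraries, 15762 to 16611 genes had a value above 0. The libraries of one age correlated with each other at 0.9786 or more on the log2 scale. The E13 libraries differed in a way that bears on many genes: E13 replicate 0 lay nearer to P0 than E13 replicate 1 did for 4781 (75.4%) of the called genes. Replicates carry the numbers of the labels, which start at 0.

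The libraries differed in RNA of sex-linked genes, and the difference ran partly with age. Eif2s3y, a Y-linked gene, measured 3.39 and 0.037 FPKM at E13 and 9.16, 18.04 and 13.2 FPKM at P0 and was called higher (2.71 ± 0.82). Ddx3y, another, measured 1.42 and 0 FPKM at E13 and 1.72, 5.34 and 3.71 FPKM at P0 and was also called higher (1.48 ± 0.56). Without E13 replicate 1 neither was called (1.67 and 0.84), and Ddx3y was also not called without P0 replicate 1 (1.20) or P0 replicate 2 (1.42), with a pseudocount of 0.1 FPKM or with no filter on low values. The Y-linked Kdm5d measured 1.65 and 0.0112 FPKM at E13 and 0.689, 2.12 and 0.954 FPKM at P0 and was not called. Xist, the RNA of the inactive X chromosome, measured 1.73 and 3.39 FPKM at E13 and 0.180, 0.0475 and 0.115 FPKM at P0, below the filter. E13 replicate 1 held next to no RNA of these Y-linked genes, unlike E13 replicate 0 and the 3 P0 libraries, and Xist was lower in every P0 library than in either E13 library. The part of this in the other age differences was not tested.

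The dissection was checked against its label with 10 genes of dorsal telencephalic identity, all of which were detected. Emx2 and Lhx2, which pattern the cortical progenitor zone, fell (-2.92 and -1.80). Neurod2 and Bcl11a, made by cortical neurons, rose by 1.74 and 0.83, but neither call held without E13 replicate 1 (1.08 and 0.70), and the count of 3 members that rose became 0. Of 20 genes that mark hindbrain, midbrain, diencephalon or hypothalamus, 8 were at 0 in all 5 libraries and 1 passed the filter, Lmx1a, which also marks the cortical hem and fell by 1.87.

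DNA replication genes are shown first because nearly all of them fell. The minichromosome maintenance (Mcm) proteins form the helicase that opens DNA, Orc1 and Cdt1 load it at origins, and Pole2 belongs to the leading-strand polymerase; the transcription factors of the E2F family are known to switch such genes on before S phase. The windows below are 30 bases of the reference promoter (RefSeq, GRCm38.p6, 250 bases before to 50 after the annotated start) around an E2F-type motif, and are shown because this motif stood in a larger share of these promoters than of all promoters. They are written 5′ to 3′ on the strand of the gene, with the motif in capitals, TTTGGCGC or TTTCGCGC or its reverse complement. The Mcm5 and Mcm6 promoters hold 2 and 3 matches, and the match on the other strand that overlaps the capitals in each of these windows is left in lower case.
Mcm3, chr1:20820263-20820292, minus strand: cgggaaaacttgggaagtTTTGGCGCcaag
Mcm5, chr8:75109345-75109374, plus strand: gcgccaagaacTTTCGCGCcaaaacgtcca
Orc1, chr4:108579416-108579445, plus strand: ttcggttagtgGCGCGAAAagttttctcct
Cdt1, chr8:122568035-122568064, plus strand: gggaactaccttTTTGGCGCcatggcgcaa
Mcm6, chr1:128359797-128359826, minus strand: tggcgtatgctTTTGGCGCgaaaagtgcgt
Pole2, chr12:69228162-69228191, minus strand: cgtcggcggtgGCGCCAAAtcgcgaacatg

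On either strand, one of the E2F-type motifs stood in 9 of the 37 replication genes with a listed promoter (24.3%), in 2.17% of the promoters of genes called lower, in 1.61% of those of genes not called, and in 225 of all 27025 listed promoters (0.833%). The CCAAT box, CCAAT on either strand, is known as a site of the NF-Y factor in cell cycle promoters. It was present in 62.2% of the replication promoters, 43.1% of those of genes called lower, 39.7% of those of genes not called and 37.9% of all promoters. The cell cycle homology element, TTTGAA or TTCGAA on either strand, stood in 18.9%, 16.7%, 12.6% and 19.4% of the same sets, in the same order. These matches describe the letters of the reference and are not evidence of binding.

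A motif of neuronal genes, RE1, was searched as well, here AGCACC, then 2 bases of any kind, then GGACAG, on either strand, known as the site of the repressor REST, which keeps neuronal genes silent outside neurons. It stood in 14 of the 27025 promoters (0.0518%), and 10 of these belong to tested genes: 8 were called higher at P0, 1 lower and 1 was not called. Of all tested genes, with or without a listed promoter, 24.4% were called higher. Only 79.3% of the tested genes and 75.6% of those called higher had a listed promoter. Both lie under the 80% set as the minimum, so no share was read for either set. The windows of the 4 genes called higher with the smallest adjusted p show the core in capitals, as written above or as its reverse complement.
Fam163b, chr2:27142557-27142586, minus strand: ccagcgtcAGCACCAGGGACAGttcctcgc
Scamp5, chr9:57468190-57468219, minus strand: gaatatttAGCACCACGGACAGctcctgca
Hrh3, chr2:180104569-180104598, minus strand: acgcggcgCTGTCCGTGGTGCTgcccgcgc
Fbll1, chr11:35799051-35799080, minus strand: tgaggtagCTGTCCCTGGTGCTgactggac

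Fam163b, a small membrane protein gene expressed in brain, measured 0.391 and 0.192 FPKM at E13 and 19.1, 21.2 and 25.8 FPKM at P0, a rise of 4.15 ± 0.20 (adjusted p = 2.35e-09). Scamp5, a protein of secretory and synaptic vesicles, rose by 2.26 ± 0.21, and Hrh3, the histamine receptor that restrains transmitter release, by 1.36 ± 0.17. Fbll1, a relative of the nucleolar methyltransferase fibrillarin, rose by 2.82 ± 0.44. All 3 P0 libraries stood above both E13 libraries for each of the genes shown. Gad2, which makes the transmitter GABA and also carries the core, rose by 1.74 ± 0.28. All 6 replication genes shown fell, with changes from -1.86 for Orc1 to -3.54 for Mcm3. Mcm3 stood at 48.7 and 55.01 FPKM at E13 and 3.39, 3.04 and 4.23 FPKM at P0, and every P0 library lay below both E13 libraries.

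Among replication genes as a whole, 40 of 44 fell and 0 rose, with a median of -2.17. Enzymes that supply the nucleotides moved with them: 24 of 26 fell and 2 rose, with a median of -1.52 beside -0.12 over all genes. Thymidine kinase, Tk1, stood at 68.6 and 93.6 FPKM at E13 and 3.13, 4.28 and 4.97 FPKM at P0 and fell by 4.00 ± 0.33. Tyms, which makes thymidylate, fell by 2.97 ± 0.27, and Rrm1, the large subunit of ribonucleotide reductase, fell by 2.52 ± 0.20. For these 3 genes no P0 library reached the lower E13 library. The small subunit used in S phase, Rrm2, fell by 2.88 ± 0.28, whereas Rrm2b, the subunit used outside S phase and in DNA repair, measured 2.42 and 2.800 FPKM at E13 and 3.79, 4.73 and 4.69 FPKM at P0. Its rise of 0.58 was called with all libraries and was no longer called without either E13 library, without P0 replicate 1 or without P0 replicate 2, which left 1 rise in place of 2. Impdh1, which makes guanine nucleotides, rose by 1.11 ± 0.30.

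The largest rises among genes with a mean of 5 FPKM or more in the higher age and no overlap between ages were those of Ptgds, Nts, Npy, Nrgn, Sla and Dync1i1, in that order. Ptgds, a prostaglandin synthase that is also a marker of the meninges, measured 1.71 and 0.561 FPKM at E13 and 495, 190.4 and 199.9 FPKM at P0 and rose by 7.02 ± 0.67. After these came Camk2b, a subunit of the calcium-dependent kinase of synapses, which measured 5.44 and 2.08 FPKM at E13 and 147, 148 and 146 FPKM at P0. The P0 libraries were nearly equal, both E13 libraries were far below them, and the rise was 5.05 ± 0.36. Mapt, the axonal microtubule protein tau, went from 18.2 and 5.93 FPKM to 383, 349 and 349.5 FPKM, a rise of 4.97 ± 0.36. Mef2c, a transcription factor of cortical neurons, rose by 5.03 ± 0.41, and Adap1, a phosphoinositide-binding regulator of the small GTPase Arf6, by 4.98 ± 0.24. In the other direction Tead2, the partner of the growth regulator Yap, fell from 188 and 253 FPKM to 9.27, 8.95 and 11.5 FPKM, a change of -4.34 ± 0.24. Id4, an inhibitor of helix-loop-helix differentiation factors, fell by 4.48 ± 0.32, and the mitotic genes Ccnb1, Cdc20 and Ube2c fell (-4.51, -4.38 and -4.50). A lack of overlap between the ages was a condition for choosing these genes, in both directions.

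**Figure D1:**
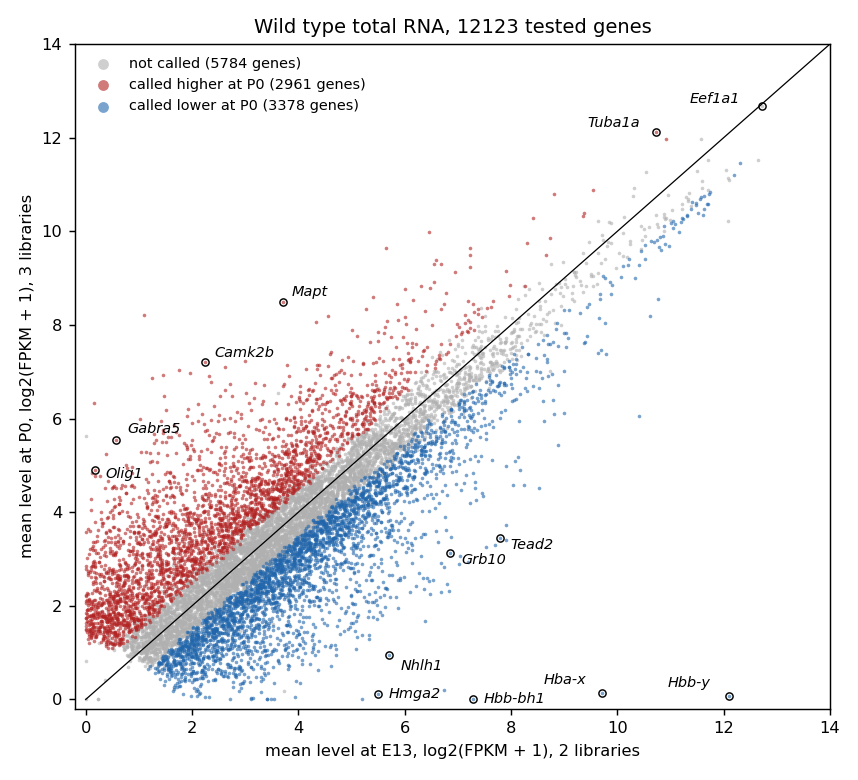
Mean level of each of the 12123 tested genes at E13 (x axis, 2 libraries) and at P0 (y axis, 3 libraries), as log2(FPKM + 1); the line marks equal levels, red points are the 2961 genes called higher at P0, blue points the 3378 called lower and grey points those not called. Camk2b, Mapt and Gabra5 lie far above the line, the embryonic globins and Hmga2 lie at the bottom edge, and Eef1a1 lies on the line at the top.

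A smaller set passed from near absence to a clear level. In all, 56 genes were under 0.5 FPKM in every E13 library and over 5 FPKM in every P0 library, and 24 showed the reverse. Vsnl1, a neuronal calcium sensor, measured 0.320 and 0.269 FPKM at E13 and 38.4, 32.8 and 39.8 FPKM at P0. Olig1, a transcription factor of the oligodendrocyte lineage, measured 0.188 and 0.0593 FPKM at E13 and 28.2, 24.4 and 33.4 FPKM at P0. Slc6a11, a GABA transporter of glia, reached 27.2, 22.7 and 23.5 FPKM at P0. Grp, which encodes gastrin-releasing peptide, and Ptk2b, a calcium-activated tyrosine kinase, behaved alike, at 28.1, 31.4 and 19.6 FPKM and 21.9, 19.4 and 14.00 FPKM at P0. Of the genes that were limited to E13, Exo1, an exonuclease of DNA repair and replication, measured 8.46 and 12.7 FPKM at E13 and 0.197, 0.425 and 0.228 FPKM at P0. Dct, an enzyme of melanin synthesis that is also expressed in telencephalic progenitors, measured 14.1 and 16.4 FPKM at E13 and 0.0797, 0.405 and 0.369 FPKM at P0. Hsd3b6, a steroid dehydrogenase, was listed at 0 in all 3 P0 libraries and at 6.76 and 14.6 FPKM at E13.

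The genes of the highest level among those that moved by less than 0.25 were housekeeping genes. Eef1a1, the translation elongation factor, measured 6658 and 6884 FPKM at E13 and 7038, 5806 and 6710.5 FPKM at P0, with a fold change of -0.06 ± 0.26. Actb, cytoplasmic actin, measured 948 and 755 FPKM at E13 and 1006, 634 and 1058 FPKM at P0. Hspa8, the constitutive heat shock protein, measured 890.1 and 923 FPKM at E13 and 1011, 720.5 and 897 FPKM at P0. For these 3 genes the ages overlapped. Ppia, Rpl38 and Tubb5 gave -0.17, -0.20 and 0.18, and none of them was called.

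**Figure D2:**
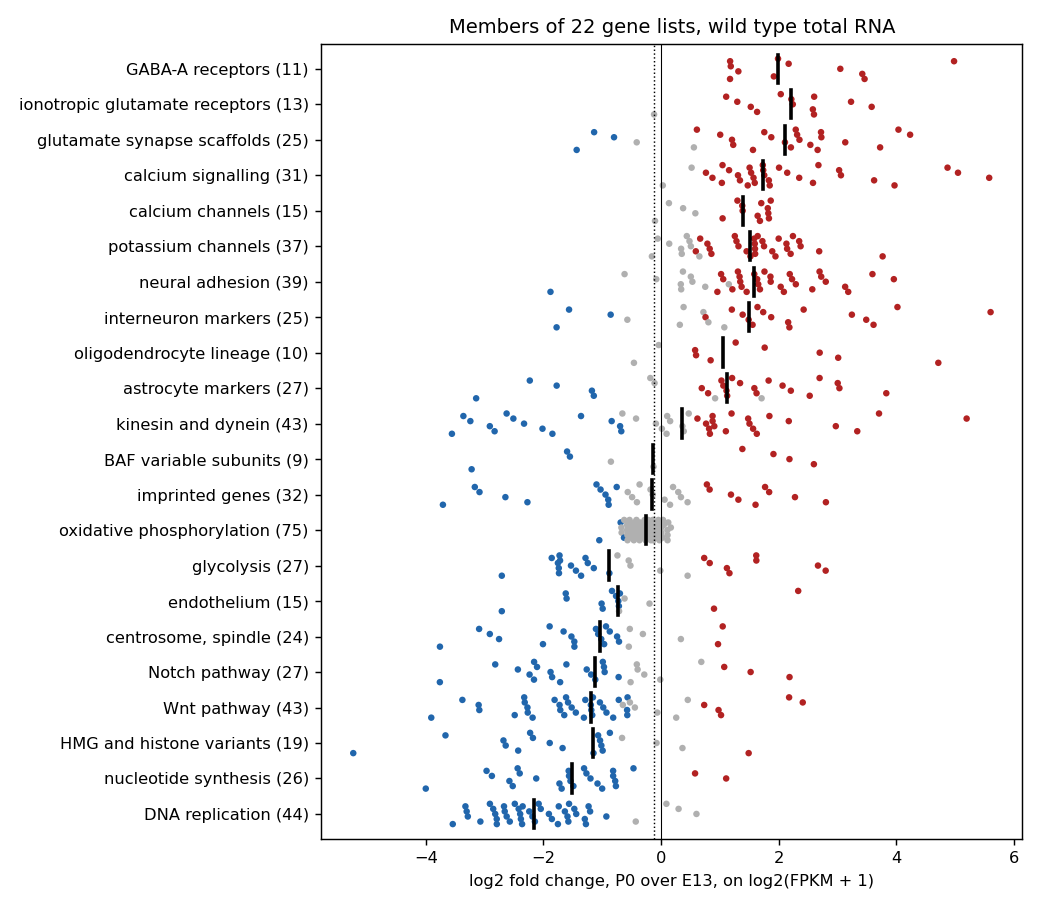
Log2 fold change, P0 over E13, of every tested member of 22 gene lists, with the number of members in brackets; red points were called higher at P0, blue points lower and grey points were not called, the bar is the list median and the dotted line the median of all tested genes (-0.12). All 11 GABA-A receptor members lie to the right of 0, 40 of the 44 DNA replication members are blue on the left, and the 75 oxidative phosphorylation members crowd around the dotted line.

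Glutamate is the main excitatory transmitter of the cortex, and its ionotropic receptors are built from AMPA (Gria), NMDA (Grin), kainate (Grik) and delta (Grid) subunits. Of 18 genes listed, 13 were tested, 12 rose and 0 fell, with a median of 2.22. Among AMPA subunits, Gria1 measured 2.79 and 0.415 FPKM at E13 and 24.3, 19.4 and 18.9 FPKM at P0. Gria2, which makes the receptor impermeable to calcium, measured 1.98 and 1.66 FPKM at E13 and 12.9, 15.3 and 8.86 FPKM at P0. For both, the lowest P0 library was several times the highest E13 library, and Gria3 and Gria4 rose by 2.04 ± 0.37 and 2.24 ± 0.27. Grin1, the obligatory NMDA subunit, measured 0.730 and 0.208 FPKM at E13 and 20.7, 15.1 and 13.8 FPKM at P0, a rise of 3.58 ± 0.30 (adjusted p = 1.90e-07). Its partners differed in level: Grin2b rose from 0.0578 and 0.0323 FPKM to 1.98, 2.198 and 1.86 FPKM, Grin3a rose from 0.0297 and 0.0187 FPKM to 6.91, 5.01 and 4.08 FPKM, and Grin2a, the subunit that takes over after birth, was below the filter with 0.370, 0.267 and 0.354 FPKM at P0. Grik2, a kainate subunit, was the tested member that was not called, at 5.87 and 7.52 FPKM at E13 and 6.79, 6.11 and 5.32 FPKM at P0. All 4 tested metabotropic receptors rose, among them Grm5 from 0.268 and 0.0646 FPKM to 10.2, 6.26 and 6.83 FPKM and Grm3 from 0.252 and 0.0176 FPKM to 9.09, 5.59 and 3.66 FPKM. With no filter on low values, 15 of 18 ionotropic and 7 of 8 metabotropic genes rose and 0 fell.

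The proteins that hold and traffic these receptors moved less uniformly. Of 25 tested genes, 20 rose and 3 fell, with a median of 2.11. Dlg2, the scaffold PSD-93, measured 1.98 and 0.868 FPKM at E13 and 41.6, 48.7 and 40.4 FPKM at P0 and rose by 4.24 ± 0.27. Its relative Dlg1, SAP97, measured 14.4 and 22.5 FPKM at E13 and 7.15, 8.13 and 7.67 FPKM at P0 and fell by 1.14 ± 0.20. The relation of the levels was thus inverted: Dlg1 exceeded Dlg2 in both E13 libraries and Dlg2 exceeded Dlg1 in all P0 libraries, in FPKM. Dlgap1, which links Dlg scaffolds to Shank proteins, rose by 4.04 ± 0.21, Neto1, an auxiliary subunit of kainate receptors, by 3.73 ± 0.23, and Cacng3, an AMPA receptor auxiliary subunit, by 3.13 ± 0.21. Homer3, a scaffold of metabotropic receptors, fell from 25.8 and 27.8 FPKM to 8.89, 9.13 and 9.81 FPKM, whereas Homer1 rose by 1.01, a call that was lost without E13 replicate 0 (0.84).

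Inhibition in the mature cortex runs through GABA-A receptors, chloride channels assembled from several subunits. Of 16 subunit genes, 11 were tested and all 11 rose, with a median of 1.99. The filter takes the mean over both ages, so here and in other lists a gene low at E13 can pass through its P0 level. With no filter on low values, 16 were tested, 12 rose and 1 fell, with a median of 1.25. Gabra5, typical of extrasynaptic receptors, measured 0.734 and 0.237 FPKM at E13 and 41.3, 45.2 and 49.8 FPKM at P0. Gabrb2, a β subunit, rose by 3.42 ± 0.36. The sign of the GABA response is known to depend on the cell's chloride, which Slc12a2 (NKCC1) brings in and Slc12a5 (KCC2) removes. Slc12a5 measured 0.322 and 0.152 FPKM at E13 and 5.33, 3.94 and 3.71 FPKM at P0, a rise of 2.10 ± 0.25 (adjusted p = 5.12e-06), with no overlap. Slc12a2 measured 7.601 and 6.42 FPKM at E13 and 8.11, 7.104 and 5.69 FPKM at P0. Its ages overlapped, and its fold change was -0.02 ± 0.33. Slc12a7, another potassium-chloride exporter, fell by 1.96 ± 0.21. Compared per length, Slc12a2 stayed above Slc12a5 in every library. Gad1, the main GABA-synthesising enzyme, rose from 0.616 and 0.0194 FPKM to 11.2, 12.2 and 17.6 FPKM, and Slc32a1, which loads GABA into vesicles, from 0.370 and 0 FPKM to 4.87, 4.26 and 7.05 FPKM. These genes are also interneuron markers, and the whole list of 30 interneuron markers summed to 129 and 90.1 FPKM at E13 and 397, 354 and 469.5 FPKM at P0. Its part in the rise of GABA genes was not tested.

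The glial GABA transporter Slc6a11 rose as well, by 4.25 ± 0.25. The vesicular glutamate transporters went in different directions with less certainty. Slc17a7 (VGLUT1), used by most cortical projection neurons, measured 21.8 and 12.5 FPKM at E13 and 37.05, 26.3 and 34.6 FPKM at P0. Slc17a6 (VGLUT2) measured 9.802 and 6.23 FPKM at E13 and 2.52, 3.89 and 3.75 FPKM at P0. The libraries of the ages did not overlap for either. The fall of Slc17a6 (-1.03 ± 0.40) was called with all libraries and was lost when any 1 of the 5 libraries was left out, when the pseudocount was 5 FPKM or when libraries were rescaled by median ratio. The rise of Slc17a7 (0.93 ± 0.36) was lost without E13 replicate 1, P0 replicate 0 or P0 replicate 2, and with the replicate block. The calls were also lost for both genes when no filter on low values was used.

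Voltage-gated channels rose across families. Of 6 tested sodium channel genes, 5 rose, of 15 calcium channel genes 11 and of 37 potassium channel genes 28, and no member of these lists fell in the reported fit (1 sodium channel gene fell without P0 replicate 0 or P0 replicate 1). Their medians were 2.40, 1.39 and 1.52. With no filter on low values, 7 of 11 sodium channel genes rose and 1 fell, and 11 of 18 calcium and 37 of 51 potassium channel genes rose. Scn2a1, the axonal sodium channel of young cortical neurons, measured 0.448 and 0.132 FPKM at E13 and 10.6, 10.4 and 5.62 FPKM at P0. Scn3a, the channel typical of embryonic neurons, measured 0.673 and 0.423 FPKM at E13 and 4.68, 6.75 and 3.29 FPKM at P0. Both rose, by 2.90 ± 0.38 and 1.90 ± 0.33, and neither overlapped between ages. The accessory subunit Scn3b rose by 2.92 ± 0.25. Among calcium channels, the L-type pores Cacna1c and Cacna1d rose by 1.83 ± 0.27 and 1.70 ± 0.22, while Cacna1g, a low-threshold T-type pore, measured 3.35 and 2.74 FPKM at E13 and 3.77, 3.84 and 2.75 FPKM at P0 and was not called. Kcnip2, which modulates the A-type potassium current, showed the largest rise of its list, from 0.763 and 0.120 FPKM to 18.3, 15.01 and 21.7 FPKM. Kcnab1, an accessory subunit, rose by 2.69 ± 0.25, and Kcnk3, a leak channel that sets the resting potential, by 1.72 ± 0.18. Of the 51 potassium channel genes listed, 14 did not pass the filter.

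Calcium sensors and calmodulin kinases carry activity signals inside neurons. Of 31 tested genes of calcium signalling, 29 rose and none fell, with a median of 1.74. The summed level of the list was 1273 and 1312 FPKM at E13 and 3320.2, 3087 and 3470.1 FPKM at P0. Nrgn, neurogranin, which binds calmodulin in dendritic spines, measured 1.43 and 1.32 FPKM at E13 and 92.3, 103 and 150.2 FPKM at P0. Ncald, a neuronal calcium sensor, rose by 3.62 ± 0.18 (adjusted p = 2.68e-09), Camk4, a nuclear calmodulin kinase, by 3.06 ± 0.24 and Camk2a by 1.74 ± 0.35. Camk2a stood at 10.3, 10.6 and 19.6 FPKM at P0, below Camk2b in every P0 library.

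Cell surface adhesion molecules and guidance receptors steer growing axons and match synaptic partners. Of 39 tested adhesion genes, 29 rose and 1 fell (2 without P0 replicate 0), with a median of 1.59. The presynaptic neurexin Nrxn2 measured 4.89 and 2.75 FPKM at E13 and 33.7, 26.4 and 28.6 FPKM at P0, a rise of 2.70 ± 0.31, and Nrxn3 rose by 2.03 ± 0.24. Cntn1, a contactin of axons, rose by 3.59 ± 0.39. The member that fell was Cntnap2, a neurexin-like protein that clusters potassium channels, with 42.7 and 61.3 FPKM at E13 and 14.3, 10.6 and 15.1 FPKM at P0 and a change of -1.88 ± 0.35. Cdh2, the N-cadherin of progenitor junctions and synapses, measured 38.2 and 42.2 FPKM at E13 and 76.5, 54.97 and 45.1 FPKM at P0 and was not called.

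The guidance families were split. Of 26 semaphorins and their receptors, 9 rose (34.6%) and 4 fell (15.4%). Of 18 ephrins and Eph receptors, 7 rose (38.9%) and 6 fell (33.3%). Of all genes, 24.4% rose and 27.9% fell. Sema4f and Sema6b rose by 2.02 ± 0.25 and 2.40 ± 0.31, whereas Sema5a and Sema5b fell (-1.65 ± 0.27 and -1.55 ± 0.29). Of the ephrin-B ligands, Efnb1 fell from 58.7 and 55.1 FPKM to 8.87, 10.3 and 8.66 FPKM and Efnb3 rose from 14.8 and 13.6 FPKM to 66.5, 53.1 and 47.5 FPKM. Efnb1 exceeded Efnb3 in both E13 libraries and Efnb3 exceeded Efnb1 in all P0 libraries, in FPKM. Of slits, netrins and their receptors, 10 of 20 rose and 4 fell, which became 6 and 2 without E13 replicate 1. Robo1, the slit receptor, rose by 1.77 ± 0.40 and its ligand Slit2 fell by 1.29 ± 0.29.

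Migration genes included the adaptors of the reelin and Cdk5 pathways, which position neurons in the layers. Of 26 genes, 12 rose (46.2%, beside 24.4% of all genes) and 5 fell (19.2%, beside 27.9%). Cdk5r2 (p39), an activator of the kinase Cdk5, measured 1.79 and 0.866 FPKM at E13 and 37.5, 34.7 and 40.9 FPKM at P0, a rise of 4.08 ± 0.25, while Cdk5r1 (p35), the other activator, was already at 40.2 and 22.9 FPKM at E13 and rose by 2.26 ± 0.29. Dcx, a microtubule protein of migrating neurons, rose by 2.49 ± 0.43 and its relative Dclk1 by 2.41 ± 0.17. Rnd2, a small GTPase of newborn neurons, fell from 630.3 and 387 FPKM to 50.4, 61.9 and 92.9 FPKM. Dab1, the intracellular partner of reelin receptors, rose by 1.05 ± 0.21.

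Motor proteins carry cargo along microtubules or build the mitotic spindle, and they moved in both directions. Of 43 kinesin and dynein genes, 19 rose (44.2%, beside 24.4% of all genes) and 14 fell (32.6%, beside 27.9%). The mitotic motors Kif22, Kif2c, Kif20a and Kif11 fell (-3.56, -3.36, -3.24 and -2.91). The transport motors Kif5a and Kif3a rose by 3.34 and 1.84, and Kifc2, a minus-end motor of neurons, by 3.71. Kifc2 measured 0.761 and 0.339 FPKM at E13 and 17.4, 17.9 and 22.2 FPKM at P0. Kif22 measured 36.7 and 41.02 FPKM at E13 and 1.85, 2.49 and 2.89 FPKM at P0. The order of these genes was inverted between the ages in every library.

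Centrosome and spindle genes, several of which are mutated in primary microcephaly, fell in 18 of 24 cases and rose in 2, the latter 1 without E13 replicate 1. Aspm, which organises spindle poles, measured 3.78 and 2.795 FPKM at E13 and 0.216, 0.396 and 0.448 FPKM at P0, and Plk4, which starts centriole duplication, fell by 2.75 ± 0.22. Nde1 and Ndel1 bind the same dynein regulators, the former mainly in mitotic progenitors and the latter in migrating neurons. Nde1 measured 85.3 and 119 FPKM at E13 and 5.41, 6.94 and 7.37 FPKM at P0, a change of -3.76 ± 0.26. Ndel1 measured 16.1 and 14.99 FPKM at E13 and 31.2, 31.5 and 31.5 FPKM at P0, a change of 0.97 ± 0.19. Akna, which anchors microtubules in progenitors that leave the ventricular surface, fell by 1.89 ± 0.19.

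Tubulin is the building block of microtubules, and the summed level of the tubulin list was 5198 and 5322 FPKM at E13 and 10670.5, 9213 and 10530.0 FPKM at P0. The isotypes differed: of 15, 7 rose (46.7%, beside 24.4% of all genes) and 5 fell (33.3%, beside 27.9%). The falls numbered 4 with median ratio rescaling. The list median was 0.18, and 0.17 without E13 replicate 1. Tuba1a, the main α-tubulin of growing neurons, measured 1636 and 1746 FPKM at E13 and 4569.9, 4141 and 4572 FPKM at P0 and rose by 1.39 ± 0.27. Tuba1b measured 734 and 1009 FPKM at E13 and 277, 231 and 279 FPKM at P0 and fell by 1.72 ± 0.31. Tubb3 and Tubb4a rose by 1.89 ± 0.26 and 2.80 ± 0.25, and Tubb5 was among the least changed genes. Tubulin isotypes are near copies of each other, so reads may have been split between them and the single values are uncertain.

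Notch signalling keeps radial glia from differentiating. Of 27 genes, 18 fell and 3 rose, with a median of -1.12. The ligand Dll1 measured 20.1 and 18.3 FPKM at E13 and 3.73, 3.602 and 3.25 FPKM at P0, and the receptor Notch1 fell by 1.72 ± 0.29. The target genes Hes1 and Hey2 fell (-2.82 ± 0.28 and -2.16 ± 0.22), and Hes5 fell by 1.85 ± 0.41. The glycosyltransferases that modify Notch split: Mfng measured 83.4 and 76.1 FPKM at E13 and 4.16, 4.86 and 5.97 FPKM at P0, a change of -3.76 ± 0.24. Rfng measured 20.7 and 18.02 FPKM at E13 and 62.2, 51.4 and 59.1 FPKM at P0, a rise of 1.52 ± 0.25. Dner, a Notch ligand of neurons, rose by 2.18 ± 0.34.

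Wnt signals pattern the dorsal cortex and drive progenitor division. Of 43 genes, 32 fell and 5 rose, with a median of -1.19. Among ligands and their agonists, Wnt8b, made by the cortical hem, measured 6.499 and 11.1 FPKM at E13 and 0.0173, 0.0165 and 0.320 FPKM at P0. Wnt3a measured 3.14 and 4.297 FPKM at E13 and 0.043, 0 and 0.0498 FPKM at P0. Rspo1, an agonist, fell by 3.91 ± 0.33. Of the receptors, Fzd2 and Fzd8 fell (-3.38 ± 0.27 and -2.33 ± 0.19). The nuclear factors Lef1 and Tcf7l1 fell (-2.49 ± 0.29 and -3.09 ± 0.26), and Axin2, a target used as a readout of the pathway, measured 13.1 and 12.6 FPKM at E13 and 2.98, 4.49 and 3.51 FPKM at P0. For all of these the P0 libraries lay below the E13 libraries. The members that rose included Apc, a negative regulator that also binds microtubules (2.41 ± 0.30), and Dkk3 (2.18 ± 0.38).

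FGF and hedgehog signals pattern the telencephalon and keep progenitors dividing. Of the 22 tested genes of their list, 9 rose (40.9%, beside 24.4% of all genes) and 10 fell (45.5%, beside 27.9%). The receptors Fgfr2 and Fgfr3 fell (-2.18 ± 0.27 and -3.14 ± 0.26). Of the hedgehog branch, the co-receptor Cdon measured 53.2 and 58.6 FPKM at E13 and 3.26, 4.16 and 3.23 FPKM at P0, and the transducer Smo and the transcription factor Gli3 fell (-2.88 ± 0.27 and -2.86 ± 0.22). Shh itself was listed at 0 in both E13 libraries and at 0.111, 0.0848 and 0.154 FPKM at P0, below the filter. The members that rose included Fgf12 and Fgf14 (3.58 ± 0.18 and 2.17 ± 0.20), which stay in the cell and bind sodium channels. Spry2, Etv4, Etv5 and Dusp6, targets and feedback inhibitors of FGF signalling, rose by 2.37, 1.70, 1.16 and 1.22, while both FGF receptors above fell.

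High mobility group proteins and the nuclear lamina shape chromatin in dividing cells. Of 19 members of a list that also holds histone variants, 15 fell and 1 rose, with a median of -1.15. Hmgb2 measured 237 and 368 FPKM at E13 and 19.3, 18.3 and 31.3 FPKM at P0, a change of -3.67 ± 0.34, and Hmgn2 measured 1391 and 2063 FPKM at E13 and 358, 324 and 448 FPKM at P0. H2afz and H2afx, variant histones with several near copies and therefore uncertain values, fell (-2.43 ± 0.36 and -2.68 ± 0.28). Of the lamina, Lmnb1 and the lamin B receptor Lbr fell (-1.67 ± 0.38 and -2.64 ± 0.22), and Lmna, the A-type lamin, rose from 2.17 and 0.845 FPKM to 5.37, 5.36 and 6.74 FPKM (1.49 ± 0.30).

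Genes of repressive chromatin systems moved in both directions. Of 26 Polycomb genes, 10 fell (38.5%, beside 27.9% of all genes) and 3 rose (11.5%, beside 24.4%), the latter 1 without E13 replicate 1. The methyltransferase Ezh2 measured 64.9 and 97.6 FPKM at E13 and 17.3, 19.9 and 19.3 FPKM at P0, a change of -2.03 ± 0.23, and Cbx2, a reader of its mark, fell by 3.02 ± 0.28. For DNA methylation, 9 of 19 genes fell (47.4%) and 2 rose (10.5%). Uhrf1, which directs the maintenance methyltransferase to replicating DNA, measured 36.8 and 45.95 FPKM at E13 and 1.67, 2.63 and 2.92 FPKM at P0 and fell by 3.65 ± 0.25, while Dnmt1 itself measured 23.8 and 15.4 FPKM at E13 and 13.1, 15.4 and 12.7 FPKM at P0 and was not called. The de novo enzymes Dnmt3a and Dnmt3b fell (-0.95 ± 0.22 and -1.17 ± 0.18). The Tet1, Tet2 and Tet3 enzymes, which oxidise methylcytosine, gave 0.15, 0.07 and -0.12, none of them called. Of 18 deacetylases, Hdac1 fell from 63.5 and 110.0 FPKM to 15.4, 16.1 and 14.1 FPKM, the largest change of that list.

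BAF chromatin remodelers exchange subunits when progenitors become neurons. Actl6a, the progenitor subunit, measured 74.8 and 120.3 FPKM at E13 and 8.36, 9.92 and 9.64 FPKM at P0. Actl6b, its neuronal counterpart, measured 20.9 and 9.900 FPKM at E13 and 106, 81.3 and 91.8 FPKM at P0. Ss18 fell by 1.60 ± 0.19 and Ss18l1 rose by 1.91 ± 0.28, Dpf2 fell by 1.55 ± 0.24 and Dpf1 rose by 1.38 ± 0.24. Of the ATPases, Smarca2 rose by 2.18 ± 0.18 and Smarca4 was not called (-0.13 ± 0.31).

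**Figure D3:**
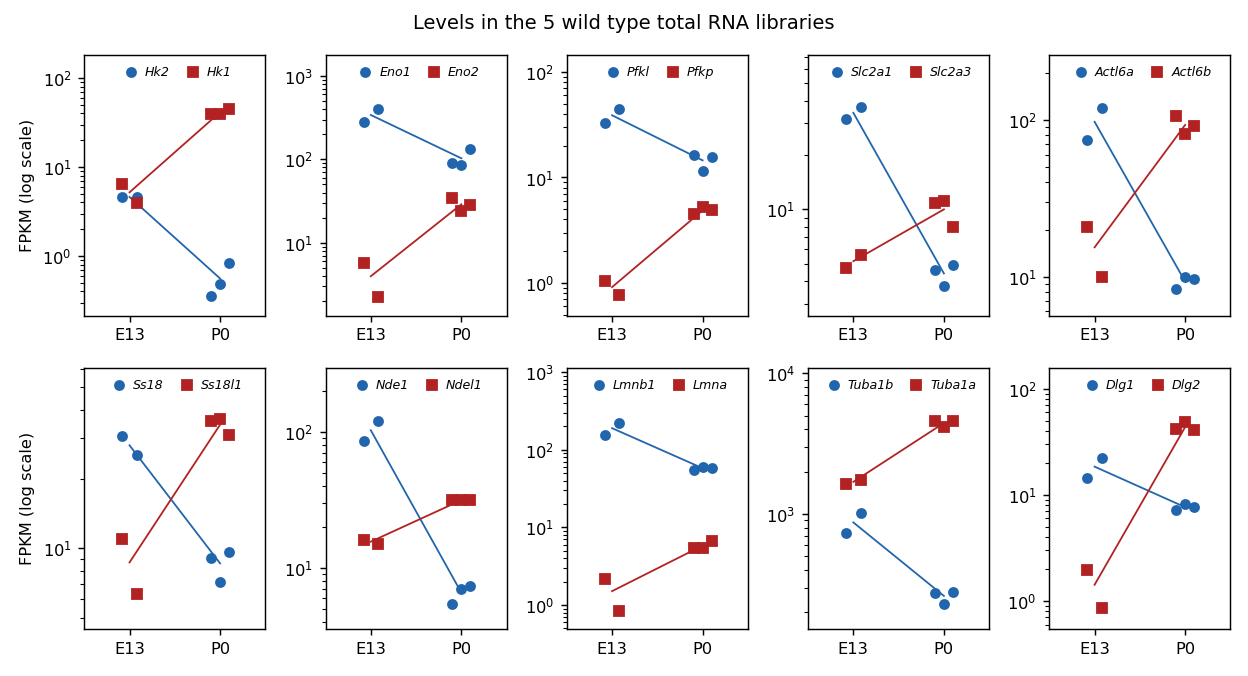
FPKM (log scale) of 10 pairs of related genes in the 2 E13 and 3 P0 libraries; circles (blue) are the member that fell, squares (red) the member that rose, and lines join the age means. In the pairs Actl6a and Actl6b, Ss18 and Ss18l1, Nde1 and Ndel1, Slc2a1 and Slc2a3, and Dlg1 and Dlg2 the order of the members in P0 is the reverse of that in E13; each panel has its own scale.

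Glycolytic genes fell more often than they rose, and several isoforms of the same enzyme moved in opposite directions. Of 27 genes, 14 fell (51.9%, beside 27.9% of all genes) and 8 rose (29.6%, beside 24.4%), with a median of -0.88. Without E13 replicate 1 the median was -0.72. Gapdh measured 1744 and 2267 FPKM at E13 and 819, 737 and 898 FPKM at P0, a change of -1.28 ± 0.31, and Pgk1, the next enzyme, fell by 1.74 ± 0.31. Ldha, which makes lactate, measured 392 and 648 FPKM at E13 and 193, 165 and 196 FPKM at P0; its change of -1.45 ± 0.40 was not called without E13 replicate 1 (-1.08). At the first step, hexokinase, Hk2 measured 4.62 and 4.597 FPKM at E13 and 0.352, 0.484 and 0.839 FPKM at P0. Hk1 measured 6.46 and 3.93 FPKM at E13 and 39.6, 39.7 and 44.5 FPKM at P0. Of the enolases, Eno1 stood at 283 and 397 FPKM at E13 and 90.1, 84.4 and 134 FPKM at P0. Eno2, the neuron-specific form, stood at 5.69 and 2.24 FPKM at E13 and 34.1, 23.97 and 28.6 FPKM at P0, below Eno1 in every library. Hk1 and Eno2 rose by 2.80 ± 0.21 and 2.67 ± 0.31, and Hk2 and Eno1 fell (-1.86 ± 0.20 and -1.73 ± 0.34). Of the glucose transporters, Slc2a1 (GLUT1) fell by 2.71 ± 0.25 and Slc2a3 (GLUT3), the neuronal form, rose by 0.83 ± 0.27, a call that was lost when any library but P0 replicate 2 was left out (0.73 to 0.93). Among phosphofructokinases, Pfkl fell by 1.36 ± 0.41, a call that was lost without E13 replicate 1 (-1.15), and Pfkp and Pfkm rose by 1.62 ± 0.21 and 1.16 ± 0.20. The pairs were chosen after the values were seen. Slc2a1 is also an endothelial gene, and the values of the endothelial list are given with the other cell types.

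The nuclear-encoded subunits of oxidative phosphorylation changed little. Of 75 genes, 0 rose and 3 fell, and all fold changes lay between -1.05 and 0.17 with a median of -0.26. The member that moved farthest was Atp5g2, a subunit of the ATP synthase ring, at 676 and 705 FPKM at E13 and 344, 290.5 and 369 FPKM at P0 (-1.05 ± 0.25). With the 5 libraries fitted alone the falls numbered 24, with the replicate block 6, and without E13 replicate 1, P0 replicate 0 or P0 replicate 1, or with median ratio rescaling, 1. Of 25 genes of sterol synthesis and uptake, 6 rose (24.0%, beside 24.4% of all genes) and 3 fell (12.0%, beside 27.9%), or 3 and 1 without E13 replicate 1. Hmgcs1, an early enzyme of the pathway, rose by 1.12 ± 0.20 and Cyp46a1, the neuronal enzyme that clears cholesterol, by 1.13 ± 0.23.

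Of 26 splicing regulators of neurons and progenitors, 13 rose (50.0%, beside 24.4% of all genes) and 6 fell (23.1%, beside 27.9%). With median ratio rescaling 15 rose and 5 fell. The list median was 0.87, and 0.75 without E13 replicate 1. Ptbp1, which represses neuronal exons in progenitors, measured 95.4 and 102 FPKM at E13 and 15.9, 16.6 and 19.8 FPKM at P0, a change of -2.44 ± 0.25. Rbfox1 measured 3.03 and 0.682 FPKM at E13 and 36.99, 47.4 and 47.5 FPKM at P0, a rise of 4.10 ± 0.45, and Rbfox3 rose by 2.16 ± 0.33. Celf5 and Celf6 rose by 2.63 ± 0.29 and 2.33 ± 0.23. Nova2 rose by 1.56 ± 0.21, while its relative Nova1 measured 5.32 and 5.18 FPKM at E13 and 6.79, 8.55 and 7.68 FPKM at P0 and was called only with the 5 libraries alone, with median ratio rescaling or with the replicate block. Of the fetal RNA-binding proteins of the Igf2bp family, Igf2bp1, Igf2bp2 and Igf2bp3 fell (-2.80 ± 0.22, -3.31 ± 0.31 and -2.17 ± 0.19). Lin28a and Lin28b, known for blocking let-7 in early embryos, were below the filter, Lin28b at 0.640 and 0.861 FPKM at E13 and 0.0529, 0.0705 and 0.135 FPKM at P0.

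Imprinted genes are expressed from one parental allele, and several are known for control of growth. Of 32 genes, 11 fell (34.4%) and 9 rose (28.1%), beside 27.9% and 24.4% of all genes. Grb10, an inhibitor of growth factor receptors, measured 97.2 and 132 FPKM at E13 and 8.22, 7.06 and 7.96 FPKM at P0, a change of -3.71 ± 0.24. Plagl1, a zinc finger regulator, fell by 2.65 ± 0.21, Peg12 fell by 3.17 ± 0.25 and the noncoding H19 fell by 2.27 ± 0.47. Igf2, the neighbour of H19, measured 74.02 and 69.6 FPKM at E13 and 118, 56.5 and 62.5 FPKM at P0 and was not called. Meg3, a noncoding RNA of neurons, rose by 2.28 ± 0.27 and Inpp5f, a phosphoinositide phosphatase, by 1.84 ± 0.20. Reads of Meg3 may be shared with overlapping transcripts of its locus, because the kit does not keep the strand and the counting is not stated.

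Hormone, growth factor and survival genes were followed as separate lists. Of 21 genes of thyroid hormone and glucocorticoid signalling, 12 rose and 1 fell, the latter 2 without P0 replicate 2. The thyroid hormone receptor Thra measured 117 and 86.1 FPKM at E13 and 647, 616 and 618 FPKM at P0, a rise of 2.63 ± 0.25 (adjusted p = 4.67e-07), and Dio2, which activates the hormone in glia, rose by 2.40 ± 0.25. Klf9, a target of thyroid hormone and glucocorticoids, rose by 2.17 ± 0.20, and Sgk1, a glucocorticoid-induced kinase, by 2.76 ± 0.19. Fkbp5, another glucocorticoid target, measured 21.6 and 32.7 FPKM at E13 and 20.2, 18.5 and 16.7 FPKM at P0 and was called only with the 5 libraries alone (-0.51). Of 25 growth factor genes and receptors, 8 rose and 8 fell (32.0% each, beside 24.4% and 27.9% of all genes). The rises numbered 5 without E13 replicate 0 or P0 replicate 0, and the falls 5 without E13 replicate 1. Mdk (midkine) fell from 467 and 480.2 FPKM to 43.1, 30.8 and 52.5 FPKM, and Erbb2, a receptor subunit, fell by 2.18 ± 0.26. Gfra2 and Pdgfa rose by 2.32 ± 0.21 and 2.09 ± 0.20. Bdnf was below the filter at both ages, at 0.112, 0.332 and 0.727 FPKM at P0. Of 25 apoptosis genes, 5 rose and 7 fell, shares near the 24.4% and 27.9% of all genes. The BH3-only killers Hrk and Bbc3 rose by 1.58 ± 0.20 and 1.87 ± 0.25, while Casp2 fell by 1.85 ± 0.18 and Birc5, which also acts in mitosis, fell by 4.25 ± 0.38.

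Immediate early genes respond to activity, and 13 of the 24 listed were tested. Of these, 5 rose (38.5%, beside 24.4% of all genes) and 4 fell (30.8%, beside 27.9%), with a median of 0.02. With no filter on low values, 8 of 24 rose and 3 fell. Fos, Arc and Npas4 were below the filter, with P0 values of 1.33, 0.662 and 3.15 FPKM for Fos. Egr1 measured 1.61 and 0.981 FPKM at E13 and 11.1, 6.65 and 12.7 FPKM at P0, a rise of 2.25 ± 0.30, and Nr4a3 and Fosl2 rose by 2.66 ± 0.44 and 2.25 ± 0.24. Btg2, which is also a marker of progenitors that make neurons, fell by 3.41 ± 0.30 and Jun fell by 1.32 ± 0.28.

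Markers of cortical layers and of interneurons were followed as separate lists. Deep-layer genes rose in 8 of 14 cases and fell in 0. Ldb2, a cofactor of corticospinal neurons, measured 4.88 and 4.53 FPKM at E13 and 71.1, 73.7 and 54.2 FPKM at P0. Syt6 measured 0.744 and 0.391 FPKM at E13 and 10.95, 9.93 and 9.05 FPKM at P0, and Foxp1 and Etv1 rose by 1.71 ± 0.19 and 1.95 ± 0.18. Fezf2, an early identity gene of these layers, measured 50.5 and 49.3 FPKM at E13 and 41.6, 36.7 and 38.4 FPKM at P0. Tbr1, another, measured 29.6 and 15.8 FPKM at E13 and 23.8, 25.3 and 24.99 FPKM at P0, and neither was called. Interneurons are born outside the cortex and migrate into it, and 16 of 25 of their markers rose and 3 fell. Lhx6, a transcription factor of one interneuron class, measured 2.48 and 0.271 FPKM at E13 and 34.7, 30.6 and 34.3 FPKM at P0, a rise of 4.02 ± 0.40. Sox6 and Sp8, which cortical progenitors also express, fell (-1.78 ± 0.20 and -1.56 ± 0.21). Sst, somatostatin, measured 17.04 and 0.277 FPKM at E13 and 55.4, 36.9 and 93.7 FPKM at P0. E13 replicate 0 stood above E13 replicate 1 for Lhx6, Gad1, Npy and Sst, and without E13 replicate 1 the rise of Sst (3.61 ± 1.01) was 1.70 and was not called. Of 6 subplate genes, 3 rose (50.0%, beside 24.4% of all genes) and 2 fell (33.3%, beside 27.9%), with a median of 0.67. Kcnab1 and Nr4a2 rose by 2.69 and 1.09 ± 0.32, the latter not called without E13 replicate 0 (0.88), and Nxph4 and Lpar1 fell (-2.99 ± 0.30 and -1.82 ± 0.26). Of 7 Cajal-Retzius genes, 1 rose (14.3%, beside 24.4% of all genes) and 3 fell (42.9%, beside 27.9%). The one that rose was Reln, which encodes reelin, the secreted signal these cells are known for, at 5.98 and 2.22 FPKM at E13 and 16.1, 12.2 and 7.41 FPKM at P0. Its change of 1.39 ± 0.37 was not called without E13 replicate 1 (0.83), which left 0 rises, and without P0 replicate 0 there were 2. Ebf2 and Nhlh2 fell (-1.65 ± 0.28 and -1.48 ± 0.28) and Trp73, at 4.91 and 4.804 FPKM at E13 and 2.85, 2.78 and 3.398 FPKM at P0, was called only with the 5 libraries alone or with the replicate block.

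Glial markers rose more often than they fell. Of 27 tested genes of astrocytes and late radial glia, 18 rose and 5 fell, and the list summed to 1139.6 and 921 FPKM at E13 and 1666, 1477 and 2029.6 FPKM at P0. Aldh1l1, a pan-astrocyte marker, measured 0.129 and 0.0611 FPKM at E13 and 6.07, 7.82 and 10.5 FPKM at P0. Gfap, the filament protein, measured 0.0185 and 0.116 FPKM at E13 and 8.27, 13.4 and 25.1 FPKM at P0. Hepacam and Aqp4 rose by 2.70 ± 0.25 and 1.34 ± 0.22, and the glutamate transporters Slc1a2 and Slc1a3 by 1.62 ± 0.28 and 1.06 ± 0.28. The list holds genes that radial glia also express, among them Fgfr3 and Sox9, which fell (-3.14 and -2.23 ± 0.33). Of the oligodendrocyte lineage, 8 of 10 tested members rose and 0 fell, with a median of 1.06. With no filter on low values, 12 of 18 rose and 1 fell, with a median of 0.54. Olig2 measured 0.686 and 0.0785 FPKM at E13 and 8.53, 10.3 and 10.9 FPKM at P0. Sox10 measured 0 and 0.0233 FPKM at E13 and 1.53, 2.66 and 3.36 FPKM at P0. Both were near 0 at E13, while Pdgfra, the receptor of precursor cells, went from 1.93 and 1.51 FPKM to 6.76, 5.57 and 4.47 FPKM. Mbp, a myelin gene, rose by 0.84 ± 0.20.

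Cells of other origin were present at both ages. Microglial markers summed to 68.2 and 70.2 FPKM at E13 and 108, 91.2 and 111 FPKM at P0, and 4 of 18 rose and none fell, a share near the 24.4% of all genes. That count was 1 without either E13 library and 2 without P0 replicate 0 or P0 replicate 2. Csf1r and Cx3cr1, which define these cells, were not called. Endothelial markers summed to 151 and 129 FPKM at E13 and 90.9, 66.04 and 63.4 FPKM at P0, and 10 of 15 fell and 2 rose, or 3 fell without E13 replicate 0 and 1 rose without E13 replicate 1. Pecam1, a junction protein of vessels, measured 5.05 and 5.77 FPKM at E13 and 1.23, 1.05 and 1.03 FPKM at P0, whereas Cldn5, the tight junction protein of the blood-brain barrier, measured 20.2 and 9.47 FPKM at E13 and 16.5, 10.1 and 10.3 FPKM at P0 and was not called. Slco1c1, a barrier transporter of thyroid hormone that astrocytes also express, rose by 2.33 ± 0.33. Of 9 tested mural genes, 2 rose (22.2%, beside 24.4% of all genes) and 1 fell (11.1%, beside 27.9%). Without E13 replicate 1, 1 rose, and without P0 replicate 2, 2 fell. Higd1b rose by 1.95 ± 0.23, Notch3, a receptor of vessel smooth muscle, fell by 1.88 ± 0.22, and Pdgfrb was not called. Of 17 tested meningeal genes, 3 rose (17.6%, beside 24.4% of all genes) and 6 fell (35.3%, beside 27.9%), and Ptgds had the largest rise. Aldh1a2 rose by 2.27 ± 0.28 and Lum fell by 2.46 ± 0.36, while Col1a1 and Dcn were not called.

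Choroid plexus differed widely in summed marker level between libraries of the same age. Its 10 markers summed to 562 and 212 FPKM at E13 and 10.2, 36.9 and 679 FPKM at P0, and Ttr, transthyretin, its most abundant product, measured 514 and 186 FPKM at E13 and 1.92, 30.9 and 651 FPKM at P0. P0 replicate 2 lay above both E13 libraries and P0 replicate 0 far below them, and the fold change of -2.98 ± 1.82 was called only without P0 replicate 2 (-5.01) or with the replicate block (-4.64). Of the 8 tested markers, 3 fell with all libraries (37.5%, beside 27.9% of all genes), and 6 without P0 replicate 2 or with the replicate block. The list median was -1.78, and -1.41 without E13 replicate 0. Lmx1a, described above, and Otx2 were among the falls, and each was lower in every P0 library than in either E13 library. Otx2 measured 7.46 and 5.73 FPKM at E13 and 0, 0.103 and 2.24 FPKM at P0. The ages overlapped for Kcne2, which was also called lower. Red cell genes were far lower at P0: of 11 tested members 9 fell and none rose, and the list summed to 8066 and 7713 FPKM at E13 and 329.7, 132 and 338 FPKM at P0. Embryonic globin Hbb-y measured 3642 and 5189 FPKM at E13 and 0, 0.170 and 0 FPKM at P0, and Alas2, the first enzyme of haem synthesis in red cells, fell by 2.07 ± 0.22. Globin genes are near copies, so the split between them is uncertain. The part of blood, choroid plexus or vessel RNA in other results was not tested.

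Genes that span long stretches of the genome rose more often than short ones. A RefSeq span (GRCm38.p6) was found for 12050 of the 12123 tested genes (99.4%). Of 2988 genes of up to 10 kb, 19.4% rose and 30.4% fell, with a median of -0.26, and of 3898 genes between 10 and 30 kb, 18.9% rose and 30.8% fell. Of 411 genes over 300 kb, 271 (65.9%) rose and 39 (9.49%) fell, with a median of 1.19. The classes differed in level at E13, where their median was 14.1 FPKM for the shortest and 2.07 FPKM for the longest, and the part of level in this difference was not tested. These shares are a description, with no test. The median of the longest class at P0 was 6.39 FPKM.

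Long genes that rose included Dlgap1, on chromosome 17 from 69969073 to 70821413 (852 kb), described above, and Rgs7, on chromosome 1 from 175059076 to 175492862 (434 kb). Rgs7, which shortens G protein signals, measured 0.274 and 0.609 FPKM at E13 and 21.6, 24.2 and 21.6 FPKM at P0, a rise of 4.03 ± 0.23. Fam19a2, which encodes a secreted neurokine, on chromosome 10 from 123264024 to 123741204 (477 kb), measured 0.190 and 0.212 FPKM at E13 and 26.9, 24.3 and 27.5 FPKM at P0. Fgf12 spans chromosome 16 from 28157783 to 28753243 (595 kb). The long genes that fell were fewer and included progenitor regulators. Dach1, a transcription cofactor on chromosome 14 from 97786846 to 98169765 (383 kb), measured 17.05 and 22.9 FPKM at E13 and 0.820, 1.37 and 1.93 FPKM at P0, a change of -3.16 ± 0.24. Sox6, on chromosome 7 from 115470872 to 116040776 (570 kb), measured 14.2 and 16.01 FPKM at E13 and 3.77, 3.66 and 3.66 FPKM at P0. For each of these genes the ages did not overlap.

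**Figure D4:**
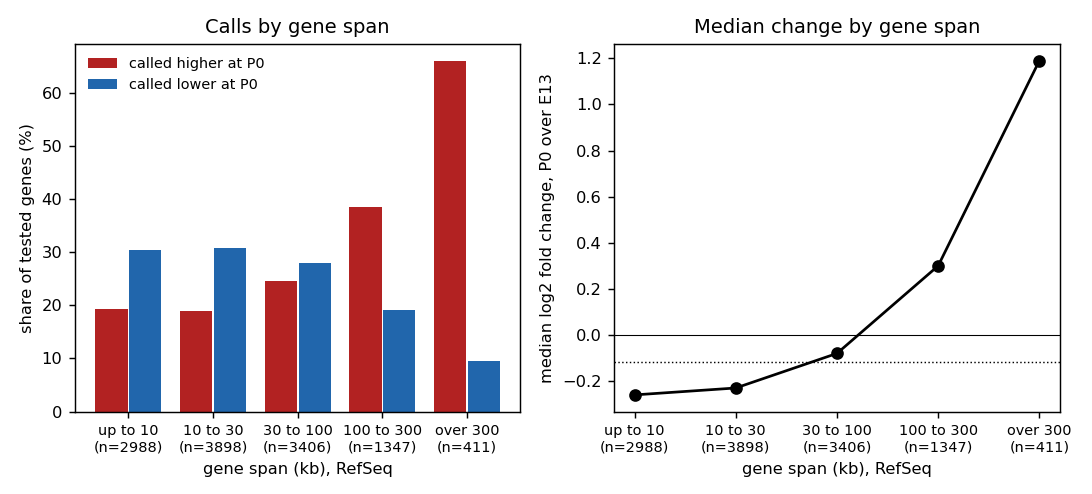
Left, share of tested genes (%) called higher (red) and lower (blue) at P0 in 5 classes of genomic span in kilobases; right, median log2 fold change of each class, with the dotted line at the median of all tested genes (-0.12). The share called higher is 19.4% in the shortest class and 65.9% in the longest, and the median goes from -0.26 to 1.19.

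The same age difference was measured in total RNA of the libraries labelled HuR cKO, with a test of the difference between the age effects. Elavl1, the targeted gene, measured 28.5 and 39.5 FPKM at E13 and 13.5, 15.2 and 15.2 FPKM at P0 in WT, a change of -1.14 ± 0.34 that was not called without E13 replicate 1 (-0.92). In libraries labelled HuR cKO it measured 55.4 and 42.5 FPKM at E13 and 17.8, 25.1 and 28.5 FPKM at P0, so its level there was not lower, with the caveat that the tables may have been scaled separately. Of 12233 genes tested, 2 (0.0163%) differed in age effect, and 760 had an unadjusted p under 0.05. Of 4986 genes called in both tables, 4984 changed in the same direction. Aldoc, an aldolase enriched in radial glia and astrocytes, fell by 1.14 ± 0.28 in WT and rose in libraries labelled HuR cKO by 1.69, a difference of 2.83 (adjusted p = 0.0288). Ndrg2, a gene of astrocytes, gave -0.18 ± 0.25 in WT, where it was not called, and a rise of 2.13, a difference of 2.32 (adjusted p = 0.0288). Neither call was stable: leaving out 1 of the 10 libraries gave 0 to 3 called genes, and without the filter on low values 0 genes were called. The columns of the deposited table for libraries labelled HuR cKO are numbered from 0 and the sample titles from 1, so these libraries were assigned to their group only.

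**Figure D5:**
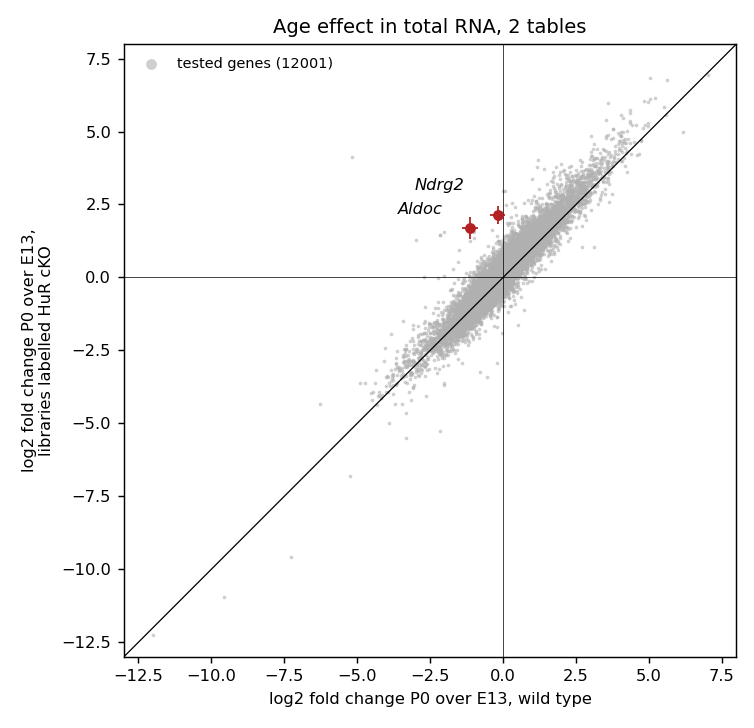
Log2 fold change, P0 over E13, in WT (x axis) and in the libraries labelled HuR cKO (y axis) for 12001 genes tested in both tables; the diagonal marks equal changes, and red points with SE bars are Aldoc and Ndrg2, the genes whose age effects differed. Most genes lie along the diagonal, and both red points lie above it.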

How the data were processed

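Poly(A) RNA of mouse neocortex was sequenced as unstranded paired-end libraries, per the labels' protocols, and reads were aligned with TopHat2 2.0.6 and Bowtie2 2.0.5.0 to mm10 (GRCm38) and quantified with Cuffdiff, per the submitters' processing notes. The authors deposited FPKM values per gene in 1 table per genotype. The labels name neither the annotation nor the scaling between libraries nor the version of Cuffdiff. The total counts behind the values are unknown, so no counting interval is given.

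From these values, 26 rows named by a date or a bare number were left out, and 23258 genes remained. The moderated test of limma 3.58.1 (R 4.3.3), with a trend in the prior variance, was fitted to log2(FPKM + 1) over 6 groups of 15 WT libraries, with 9 residual degrees of freedom, for genes with a mean of at least 1 FPKM. Total and ribosomal fractions entered as independent libraries although they may share a lysate. The contrast was total RNA at P0 minus E13, with Benjamini-Hochberg adjustment over all tested genes. The genotype difference came from a joint fit of 31 libraries in 12 groups. The steps were tested on simulated data.

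The 53 gene lists (1300 different symbols) and the members described were chosen with earlier results of these data known. Named genes were the 12 largest called changes in each direction at a level of at least 5 FPKM without overlap, genes limited to one age, and the genes with an absolute change under 0.25 and the highest level. In each list they were the preset anchor members, the 4 called members of smallest adjusted p and up to 2 of the opposite direction. Genes named beyond this rule were chosen after their values were seen: the motif and long-gene examples, the partners in isoform pairs (Eno1, Pfkl, Pfkp, Pfkm, Slc2a3, Ss18l1, Dpf1, Dpf2, Smarca4), and Alas2, Cacna1g, Ddx3y, Dusp6, Eif2s3y, Etv4, Etv5, Gapdh, Grik2, H2afz, Hes5, Hmgn2, Homer1, Kdm5d, Kif3a, Kif5a, Notch1, Pgk1, Shh, Smo, Spry2, Wnt3a, Wnt8b and Xist. Lists share members: Slc2a1 stands in the endothelial and glycolysis lists, Aldoc in the astrocyte and glycolysis lists, Kif11 in the centrosome and motor lists. Other pseudocounts, filters, rescaling by median ratio, the 5 libraries alone, a replicate block and leaving out each library were tried.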

Additional observations from a re-analysis of the deposited data

Results flagged for a closer look

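The age effect in total RNA differed between the libraries labelled HuR cKO and WT for 2 genes, by the limma test of the difference between the age effects.

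Aldoc measured 149.6 and 105 FPKM at E13 and 44.9, 54.8 and 72.3 FPKM at P0 in WT. In libraries labelled HuR cKO it measured 27.2 and 27.2 FPKM at E13 and 82.3, 99.4 and 88.7 FPKM at P0. The WT libraries were higher at E13 and the libraries labelled HuR cKO higher at P0, with no overlap of ages in either, and the age effects differed by 2.83 (limma, adjusted p = 0.0288).

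Ndrg2 measured 90.0 and 64.0 FPKM at E13 and 58.7, 58.8 and 86.1 FPKM at P0 in WT, where the ages overlapped. In libraries labelled HuR cKO it measured 22.4 and 15.5 FPKM at E13 and 70.3, 99.9 and 88.2 FPKM at P0, where they did not. The age effects differed by 2.32 (limma, adjusted p = 0.0288). For both genes the difference lay mainly at E13, where the libraries labelled HuR cKO stood below both WT libraries. The tables of the genotypes were deposited separately, and the part of scaling in this was not tested.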

How the results depend on the processing

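Under the other settings, 2925 to 3552 genes were called higher with another pseudocount, no filter, median ratio rescaling, the 5 libraries alone, no variance trend or the replicate block, and 2898 to 4087 lower. With a mean of at least 5 FPKM, 8496 genes were tested, 2016 of them were called higher and 2407 lower, and the counts of most lists fell because members left the test. Leaving out 1 library gave 2189 to 2704 higher and 2104 to 3004 lower, the lowest counts without E13 replicate 1. Median ratio rescaling moved the median of all genes from -0.12 to -0.02. It also turned the balance of calls, with 3245 genes called higher and 2898 lower, so which direction held more genes depended on the scaling. With the replicate block 3013 genes were called higher and 3450 lower. Libraries of equal number correlated at 0.173 and 0.0934 in their deviations from the group means and the others at -0.173 to 0.0892. With 2 E13 libraries these deviations mirror each other, so each correlation recurs with the opposite sign and cannot decide on a pairing. The labels state no pairing, and the numbers were not taken as one. No named gene turned direction with a call. The count of genes whose age effect differed between genotypes was 2, was 0 without the filter on low values, and was 0 to 3 when 1 library was left out. The causes were not tested. The unknown depth limits what can be said of genes of low FPKM.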
